A study of Mus musculus with 6 samples.

Results

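The genes described here are 40 genes of nucleolar ribosome assembly and RNA polymerase I (Pol I) transcription, among 32285 genes counted in single cells of mouse bone marrow. They were chosen by gene symbol from what they are known to do, and all 40 were found in the count matrices. Cells were enriched with c-Kit beads, c-Kit being a receptor of hematopoietic progenitors, from BALB/c mice harvested at 10 weeks of age. The non-tumor-bearing (NTB) mice carried no tumor and were untreated. The vehicle mice carried 4T1 tumors, made by placing this mammary carcinoma line in the mammary fat pad of mice of the same strain, and were injected daily with DPBS for 2 weeks once tumors could be measured. The brequinar (BRQ) mice carried the same tumors and were given 10 mg/kg of BRQ daily for 2 weeks. BRQ inhibits DHODH, an enzyme of pyrimidine synthesis, and pyrimidine nucleotides are building blocks of RNA. There were 9 mice, 3 per group. Each of 3 pools held 1 mouse of every group, told apart by hashtag antibodies, so mice are named here by group and pool (NTB mouse 1 was in pool 1).

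Ribosomes are built in the nucleolus. Pol I transcribes the ribosomal DNA into a long precursor RNA, which is cut, folded and chemically modified while ribosomal proteins are added. Small nucleolar RNAs guide many of the modifications, and large particles assemble the small and the large subunit separately before both leave the nucleus. Dividing progenitors need many new ribosomes, and maturing neutrophils shut ribosome production down.

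The 3 pools held 13750, 11441 and 14297 barcodes, of which 32762 in all passed the filters and 15966 were singlets of 1 mouse. Singlets ranged from 382 in vehicle mouse 2 to 2780 in vehicle mouse 1. Of the barcode sequences, 129 occurred in more than 1 pool. Granulocyte-monocyte progenitors (GMPs) were the singlets with ln(1 + Ms4a3 UMIs per 10000) over 3, and 93.2% of these 3916 cells lay in the 3 clusters called GMP-like. Among the 10 leading genes of cluster 2, which held 11.8% to 28.2% of the GMPs of a mouse, 3 were GMP markers and 3 were markers of another class, such as S100a8 and S100a9 of neutrophils. An NTB mouse gave 88 to 177 GMPs, a vehicle mouse 95 to 1017 and a BRQ mouse 653 to 806. Their UMIs (unique molecular identifiers, 1 per captured transcript) summed to between 998154 and 16074010 per mouse. Median UMIs per GMP were 10828.5 to 11581 in NTB, 14737 to 17966 in vehicle and 12168.5, 12377.5 and 15795 in BRQ mice 1, 2 and 3. A limit of this kind cuts through a range of cells: 3733 singlets lay within 0.25 of it, 1988 of them above.

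In GMPs, the 40 genes were higher in vehicle than in NTB mice almost without exception, and lower in BRQ than in vehicle mice by a smaller amount that was concentrated in Npm1, Ncl, Nhp2 and a few others. Summed over the 40 genes, NTB-GMPs held 43.9, 46.6 and 44.97 of their UMIs per 10000 in mice 1, 2 and 3. Veh-GMPs held 64.4, 66.4 and 62.3, and BRQ-GMPs 55.0, 53.7 and 67.7. Every vehicle mouse was above every NTB mouse and every BRQ mouse was too, but BRQ mouse 3, the one with the most UMIs per GMP of its group, was above all 3 vehicle mice by this measure, which is a share of all UMIs. At the scaling used for the CPM values and tests below (TMM factors), the order turned: BRQ mouse 3 was at 58.6 and the vehicle mice at 64.1 to 69.5, with the other BRQ mice at 52.5 and 50.7 and the NTB mice at 44.7 to 48.1. Nucleolin (Ncl) and nucleophosmin (Npm1) made up 47.0% to 53.9% of these sums. Without them the remaining 38 genes held 21.8 to 23.6 per 10000 in NTB mice, 29.8 to 30.6 in vehicle mice, and 28.7, 28.5 and 35.4 in BRQ mice. At the scaling of the tests these 38 genes were at 23.0 to 24.3, 30.6 to 32.4, and 27.4, 26.9 and 30.6, so that BRQ mouse 3 stood beside the lowest vehicle mouse. Later sums per 10000 are shares of all UMIs, without these factors.

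Every one of the 40 genes passed the filter on low counts and was tested among 10331 genes. Between vehicle and NTB mice, 39 of the 40 had a positive log2 fold change, with a median of 0.40 (1.32-fold) and a range from -0.12 to 0.70, whereas the median over all genes tested was -0.01. The test called 15 of them higher and 0 lower at an adjusted p under 0.05 (edgeR quasi-likelihood test, Benjamini-Hochberg), and 27 had an unadjusted p under 0.05, all of them higher. Among all genes, 6.63% were called higher and 4.68% lower. In 26 members the 3 vehicle mice lay entirely above the 3 NTB mice, which was so for 15.2% of all genes. Only Utp4 had a negative value, of -0.12 (SE 0.18, adjusted p = 0.752).

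Between BRQ and vehicle mice, 35 of the 40 genes had a negative log2 fold change, with a median of -0.13 and a range from -0.54 to 0.18. The test called 6 of them lower and 0 higher (9 lower at an unadjusted p under 0.05), against 7.36% of all genes called lower and 6.08% higher. In 12 members the BRQ mice lay entirely below the vehicle mice, against 15.4% of all genes. Nob1 alone lay entirely above, against 15.3% of all genes. The calls numbered 2 without vehicle mouse 1 or BRQ mouse 1 or 2, 3 without vehicle mouse 2 or 3, and 10 without BRQ mouse 3. Over all genes, calls in either direction numbered 699 without vehicle mouse 1, and 972 and 1160 without BRQ mice 1 and 2. They were 987 and 1019 without vehicle mice 2 and 3, and 1477 without BRQ mouse 3. With all mice, 628 genes were called higher and 760 lower. Both comparisons use the same vehicle mice, so their values are given side by side below and the one is no independent check of the other.

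Between BRQ and NTB mice, 39 of the 40 genes had a positive value, with a median of 0.26 and a range from -0.04 to 0.61. The test called 4 higher, Mybbp1a, Gnl3, Nob1 and Wdr43, and 0 lower, with 17 higher at an unadjusted p under 0.05. Among all genes 2.56% were called higher and 3.46% lower. With the pool kept as a block, which pairs mice that were run together, 10 of the 40 were called in this comparison, while calls over all genes, in either direction, went from 6.01% to 11.8%. Without NTB mouse 1 or 3, or without BRQ mouse 3, 2 of these 4 were called, and without NTB mouse 2 none of the 4 was, although 2 other members were. Calls over all genes, in either direction, numbered 410, 227 and 328 without NTB mouse 1, 2 or 3 and 432 without BRQ mouse 3. With all mice, 264 genes were called higher and 357 lower. The definition of a GMP also moved these counts: a limit of 2.5 for Ms4a3 gave 29, 5 and 19 calls in the 3 comparisons (22.6%, 12.99% and 15.7% of all genes in either direction, against 11.3%, 13.4% and 6.01% at the limit of 3), and all cells of the GMP-like clusters gave 32, 5 and 27 (15.7% of all genes higher, 7% lower and 10.7% higher). When the study's limits of 500 and 7500 were read as UMIs, 8 to 89 GMPs per mouse were left, 19 members were tested and 0 were called in each comparison.

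**Figure D1:**
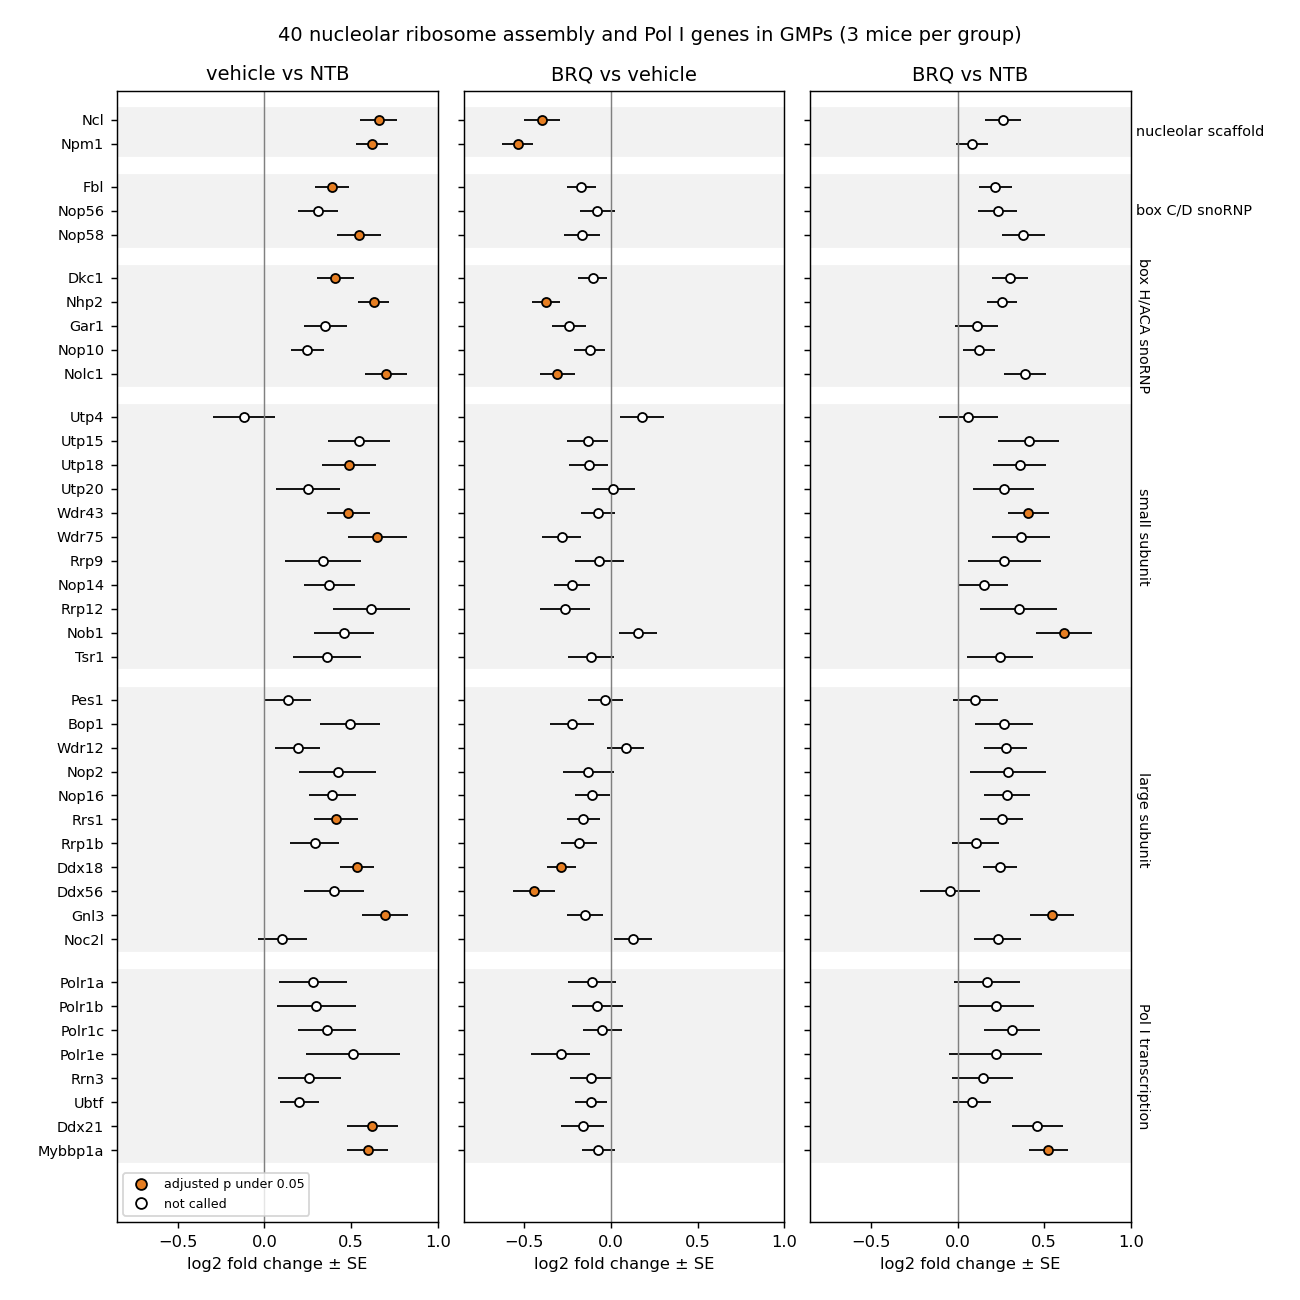
Log2 fold changes (points) with their SE (lines) for the 40 genes in GMPs, by role, in the 3 comparisons of groups (1 panel each, horizontal axis). Filled points mark an adjusted p under 0.05. Nearly all vehicle against NTB points lie right of 0, with 15 filled, and most BRQ against vehicle points lie left of 0, with 6 filled.

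The 2 scaffold proteins of the nucleolus both rose and both fell again. Npm1, a histone and ribosome chaperone that holds the outer layer of the nucleolus together, stood at 1619, 1481 and 1411 CPM (NTB), 2393, 2391 and 2152 CPM (vehicle) and 1620.1, 1509 and 1645 CPM (BRQ), each time in the order of mice 1, 2 and 3. CPM are UMI counts scaled to the same library size. The vehicle mice lay above both other groups, which overlapped. Its log2 fold change was 0.62 (SE 0.09, adjusted p = 0.000117) between vehicle and NTB mice, -0.54 (SE 0.09, adjusted p = 0.000321) between BRQ and vehicle mice and 0.08 (SE 0.09, adjusted p = 0.66) between BRQ and NTB mice. Ncl, which binds the precursor RNA and ribosomal DNA chromatin, measured 776, 896 and 761 CPM (NTB), 1319, 1334 and 1194 CPM (vehicle) and 889, 877 and 1153 CPM (BRQ). Again each vehicle mouse exceeded all others, while BRQ mouse 3 came close to the lowest of them. The log2 fold changes were 0.66 (SE 0.11, adjusted p = 0.00031), -0.40 (SE 0.10, adjusted p = 0.0118) and 0.26 (SE 0.11, adjusted p = 0.147) in the same order. The fall of Ncl was not called without vehicle mouse 1 or 2, nor without BRQ mouse 1 or 2, whereas both calls of Npm1 and the rise of Ncl were made whichever mouse was left out.

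**Figure D2:**
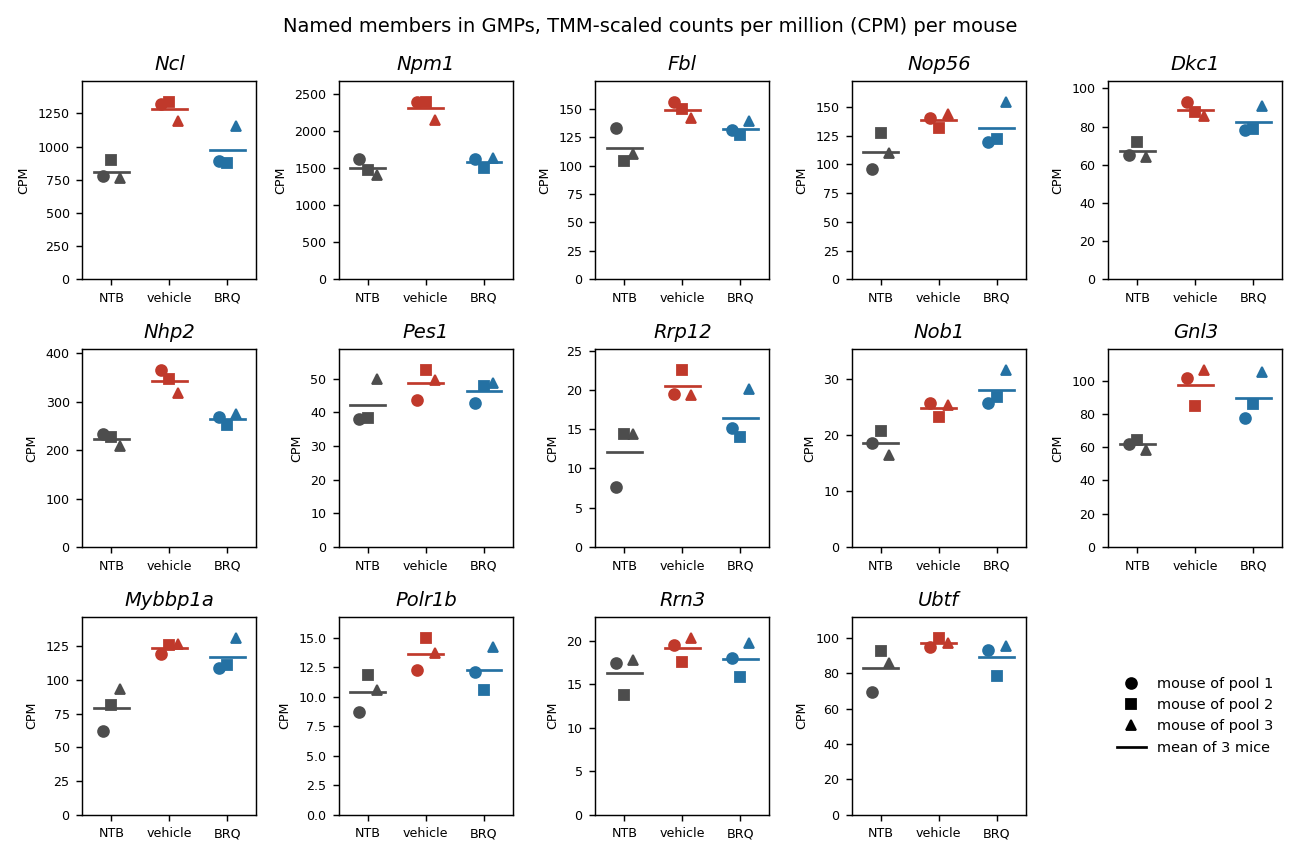
CPM in GMPs of each mouse for members with values given in the text (1 panel per gene, vertical axis from 0). Points are mice, their shape gives the pool, and lines are means of 3 mice. The vehicle mice stand above the NTB mice for Npm1, Ncl, Nhp2 and Gnl3, while the points of Pes1 and Rrn3 overlap.

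Box C/D particles place methyl groups on ribosomal RNA. Their methyltransferase, fibrillarin (Fbl), was at 133, 104 and 111 CPM (NTB), 156, 149.5 and 142 CPM (vehicle) and 131, 127 and 139 CPM (BRQ). All vehicle mice were above all NTB mice and above all BRQ mice. Fbl changed by 0.39 (SE 0.10, adjusted p = 0.0121) between vehicle and NTB mice, which was called, and by -0.17 (SE 0.08, adjusted p = 0.195) between BRQ and vehicle mice, which was not. Its partner Nop56, a core protein of the same particles, gave 95.8, 128 and 110.0 CPM (NTB), 141, 131 and 144 CPM (vehicle) and 119, 122 and 154 CPM (BRQ). For Nop56 the vehicle and NTB mice did not overlap, but the log2 fold change of 0.31 (SE 0.12, adjusted p = 0.0881) missed the threshold. The second core protein, Nop58, was called higher at 0.55 (SE 0.13, adjusted p = 0.0075), and its change under BRQ was -0.17 (SE 0.11, adjusted p = 0.341). Without NTB mouse 3 the Nop58 call was lost, and that of Fbl was lost without NTB mouse 2 or 3 or vehicle mouse 1.

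Box H/ACA particles convert uridine to pseudouridine in ribosomal RNA, and share their core with telomerase. Of their 5 genes here, 3 were called higher in vehicle than in NTB mice and 2 lower in BRQ than in vehicle mice, with median changes of 0.41 and -0.24. Over all genes, 6.63% were called higher in the first comparison and 7.36% lower in the second. The core protein Nhp2 had the smallest adjusted p of all 40 in the first comparison. It measured 233, 228 and 209 CPM (NTB), 366, 348 and 318 CPM (vehicle) and 269, 252 and 275 CPM (BRQ). The 3 groups did not overlap at all, with BRQ mice between the others. Its log2 fold changes were 0.63 (SE 0.09, adjusted p = 7.24e-05), -0.37 (SE 0.08, adjusted p = 0.00328) and 0.26 (SE 0.09, adjusted p = 0.0865), and the first 2 were called whichever mouse was left out. Nolc1, a chaperone that brings these particles to the nucleolus, was at 73.99, 82.03 and 89.9 CPM (NTB), 131, 151 and 129 CPM (vehicle) and 104, 94.6 and 128 CPM (BRQ). The BRQ mice stood above the NTB mice and below the vehicle mice in each case. Nolc1 rose by 0.70 (SE 0.12, adjusted p = 0.000674) and its BRQ change of -0.31 (SE 0.10, adjusted p = 0.0416) was called but lost when any of 6 mice was left out, and with DESeq2 (adjusted p = 0.0849). Dkc1, the pseudouridine synthase, gave 65.3, 72.01 and 63.9 CPM (NTB), 92.8, 87.6 and 85.5 CPM (vehicle) and 78.4, 78.7 and 90.9 CPM (BRQ). Its vehicle and NTB mice did not overlap, its BRQ and vehicle mice did, and the changes were 0.41 (SE 0.11, adjusted p = 0.0159) and -0.11 (SE 0.09, adjusted p = 0.472). The rise of Dkc1 was not called without NTB mouse 3 or vehicle mouse 1. Gar1 and Nop10, the remaining core proteins, were not called in any comparison, with vehicle against NTB values of 0.35 and 0.25.

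Of 11 genes for the small subunit, 3 were called higher in vehicle than in NTB mice, 0 were called between BRQ and vehicle mice, and 2 were called higher in BRQ than in NTB mice. Over all genes, 6.63% were called higher in the first comparison, 7.36% lower and 6.08% higher in the second and 2.56% higher in the third. At these shares 11 genes are too few for a count of 0 to set them apart. The median changes were 0.46, -0.12 and 0.35. The genes called higher in vehicle mice were Wdr43, Wdr75 and Utp18. Wdr43 was at 67.5, 62.6 and 81.7 CPM (NTB), 103, 94.5 and 99.8 CPM (vehicle) and 85.1, 89.7 and 109.6 CPM (BRQ). Both tumor-bearing groups lay above the NTB mice, and overlapped each other. Its log2 fold changes were 0.48 (SE 0.12, adjusted p = 0.0124), -0.08 (SE 0.10, adjusted p = 0.688) and 0.41 (SE 0.12, adjusted p = 0.0429). Wdr75 rose by 0.65 (SE 0.17, adjusted p = 0.0145) and Utp18 by 0.49 (SE 0.16, adjusted p = 0.0464). All 3 calls were lost without vehicle mouse 1, and each also without at least 1 of the NTB mice. That of Utp18 was lost without any of 6 mice in all, and with DESeq2 (adjusted p = 0.0666). The call of Wdr43 between BRQ and NTB mice was lost when any of 6 mice was left out, and with DESeq2 (adjusted p = 0.0611).

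Nob1, the nuclease that makes the final cut of the small subunit's RNA, was the member whose BRQ mice all lay above the vehicle mice. It measured 18.5, 20.7 and 16.3 CPM (NTB), 25.6, 23.1 and 25.4 CPM (vehicle) and 25.6, 26.7 and 31.6 CPM (BRQ). The lowest BRQ mouse was above the highest vehicle mouse by less than the first decimal shows. The change between BRQ and vehicle mice was 0.16 (SE 0.11, adjusted p = 0.41), that between vehicle and NTB mice 0.46 (SE 0.17, adjusted p = 0.0859), and that between BRQ and NTB mice, the only one called, 0.61 (SE 0.16, adjusted p = 0.0249). This call was lost without any 1 of the NTB mice or BRQ mouse 3, and with DESeq2 (adjusted p = 0.0597). Rrp12, needed for export of both subunits, was low, at 7.62, 14.4 and 14.4 CPM (NTB), 19.5, 22.5 and 19.4 CPM (vehicle) and 15.1, 14.1 and 20.1 CPM (BRQ). The vehicle mice were above the NTB mice, with NTB mouse 1 lowest, but the log2 fold change of 0.62 (SE 0.22, adjusted p = 0.077) was not called. The other small-subunit genes, Utp4, Utp15, Utp20, Rrp9, Nop14 and Tsr1, were not called in any comparison, and their vehicle against NTB values ran from -0.12 to 0.54.

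Of 11 genes for the large subunit, 3 were called higher in vehicle than in NTB mice (Gnl3, Ddx18 and Rrs1), 2 lower in BRQ than in vehicle mice (Ddx18 and Ddx56) and 1 higher in BRQ than in NTB mice (Gnl3). Over all genes, the shares called were 6.63% higher, 7.36% lower and 2.56% higher in the same order. The median changes were 0.40, -0.15 and 0.25. The call of Rrs1 (adjusted p = 0.038) was lost when any of 5 mice was left out, and with DESeq2 (adjusted p = 0.0675). Nucleostemin (Gnl3), a GTPase of proliferating progenitors, was at 62.02, 64.5 and 58.6 CPM (NTB), 102, 85.1 and 106 CPM (vehicle) and 77.8, 85.8 and 105 CPM (BRQ). All tumor-bearing mice were above all NTB mice, and vehicle and BRQ mice overlapped. Gnl3 changed by 0.70 (SE 0.13, adjusted p = 0.00127), -0.15 (SE 0.10, adjusted p = 0.375) and 0.55 (SE 0.13, adjusted p = 0.0111) in the 3 comparisons. The last of these was lost without NTB mouse 2 or 3. The RNA helicase Ddx18 measured 114, 115 and 96.1 CPM (NTB), 149, 163 and 156 CPM (vehicle) and 124, 119.7 and 137 CPM (BRQ). Like Nhp2, it had 3 groups without overlap and the BRQ mice in the middle. It rose by 0.53 (SE 0.10, adjusted p = 0.00126), whichever mouse was left out, and its BRQ change was -0.29 (SE 0.08, adjusted p = 0.0247), lost without any of 5 mice.

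A second helicase, Ddx56, gave 32.6, 17.5 and 23.1 CPM (NTB), 29.8, 32.5 and 31.01 CPM (vehicle) and 21.9, 20.2 and 25.1 CPM (BRQ). The NTB mice were widely spread and overlapped both other groups, while the BRQ mice were all below the vehicle mice. Its change between BRQ and vehicle mice, -0.44 (SE 0.12, adjusted p = 0.0171), was called, and was lost without any of 4 mice. Its values against NTB mice were 0.40 (SE 0.17, adjusted p = 0.145) for vehicle and -0.04 (SE 0.17, adjusted p = 0.921) for BRQ mice, the only negative value of the latter comparison. Pes1, which forms a complex with Bop1 and Wdr12 that matures the large-subunit RNA, was not called. It stood at 38.1, 38.2 and 49.97 CPM (NTB), 43.7, 52.5 and 49.6 CPM (vehicle) and 42.6, 47.7 and 48.6 CPM (BRQ). All 3 groups overlapped, and the change between vehicle and NTB mice was 0.14 (SE 0.13, adjusted p = 0.584), the 95% interval running from -0.14 to 0.41. Bop1 and Wdr12 had values of 0.49 and 0.19 in this comparison and were not called either.

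Among the 8 genes of Pol I and its factors, 2 were called higher in vehicle than in NTB mice, Mybbp1a and Ddx21, and 0 were called between BRQ and vehicle mice. Neither is part of the polymerase. Over all genes, 6.63% were called higher in the former comparison, and 7.36% lower and 6.08% higher in the latter. Mybbp1a, a nucleolar protein that acts on both Pol I transcription and processing, was at 62.02, 81.4 and 93.7 CPM (NTB), 119, 126 and 127 CPM (vehicle) and 109, 111 and 131 CPM (BRQ). The tumor-bearing mice of either treatment were above the NTB mice and overlapped each other. Its changes were 0.60 (SE 0.12, adjusted p = 0.00199), -0.07 (SE 0.10, adjusted p = 0.697) and 0.52 (SE 0.12, adjusted p = 0.00732). The last was not called without NTB mouse 2. The helicase Ddx21, which couples Pol I transcription to processing, rose by 0.62 (SE 0.15, adjusted p = 0.00838), a call lost without NTB mouse 2, and changed by -0.16 (SE 0.12, adjusted p = 0.44) between BRQ and vehicle mice.

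For the 6 genes of the polymerase itself and its initiation factors 0 calls were made. At the 6.63% of all genes called higher in vehicle than in NTB mice and the 7.36% called lower in BRQ than in vehicle mice, 6 genes are too few for a count of 0 to set them apart. The second-largest subunit, Polr1b, was at 8.70, 11.9 and 10.6 CPM (NTB), 12.3, 15.01 and 13.8 CPM (vehicle) and 12.1, 10.6 and 14.2 CPM (BRQ). Vehicle mice were just above NTB mice, with a log2 fold change of 0.30 (SE 0.23, adjusted p = 0.471). The initiation factor Rrn3, which brings Pol I to the promoter, gave 17.4, 13.8 and 17.8 CPM (NTB), 19.5, 17.5 and 20.3 CPM (vehicle) and 18.1, 15.9 and 19.8 CPM (BRQ). All groups overlapped, and the change was 0.26 (SE 0.18, adjusted p = 0.402). Ubtf, the factor that keeps ribosomal DNA open, was at 69.6, 92.7 and 86.01 CPM (NTB), 95.1, 100.1 and 97.1 CPM (vehicle) and 93.4, 78.5 and 95.5 CPM (BRQ). Vehicle mice were above NTB mice by a narrow margin, with a change of 0.20 (SE 0.11, adjusted p = 0.269). For Polr1a, Polr1c and Polr1e the vehicle against NTB values were 0.28, 0.36 and 0.51, none called, and at 5.64 to 34.1 CPM across mice these transcripts were sparsely counted.

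Where the genes lie and what they hold was examined next. Their levels entered only where members called in GMPs are counted or their promoters shown. All 40 were located in the GENCODE M21 annotation of GRCm38, on 18 chromosomes, and 0 shared an exon on the same strand with another gene. Npm1 lies on the minus strand of chromosome 11 from 33152287 to 33163206, and Ncl on the minus strand of chromosome 1 from 86344719 to 86359400. Ncl is one of 7 members (17.5%) that hold small nucleolar RNA genes within their bounds, 21 in all, against 251 of 21702 protein-coding genes (1.16%). The others are Nop56 with 5, Nop58 with 4, Wdr43, Gnl3 and Ncl with 3 each, Tsr1 with 2 and Dkc1 with 1. The libraries count the host transcripts from their 3' ends and not the small RNAs.

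RefSeq promoter windows of 300 bases (250 before and 50 after the gene start) were at hand for 35 of the 40. The E-box CACGTG, a sequence bound by Myc and related factors, occurred in 9 of these (25.7%), namely Mybbp1a, Nop2, Pes1, Rrn3, Tsr1, Utp18, Utp20, Utp4 and Wdr43, and in 1591 of all 20267 windows (7.85%). The ETS-type sequence CCGGAAG occurred in 11 (31.4%, against 11.1% of all windows), GCATGCGC, a sequence bound by NRF1, in 1 (2.86%, against 3.37%) and AAGATGGC, a YY1-type sequence, in 0 (0%, against 3.08%). Each was read on both strands, and none contains another. Of the members called in any comparison in GMPs, 14 had a window and 3 of these held CACGTG. Those 3 are shown on their coding strands from GRCm38.p6, because these genes were called higher in Veh-GMPs and hold the sequence. They are Mybbp1a at chr11:72441077-72441376 (plus strand), Wdr43 at chr17:71615965-71616264 (plus strand) and Utp18 at chr11:93885717-93886016 (minus strand), the latter 2 chosen after their values were seen. Capitals mark CACGTG, which starts 40 and 17 bases after the RefSeq gene start in Mybbp1a and Wdr43 and 20 bases before it in Utp18. GENCODE M21 places the starts of Mybbp1a and Wdr43 elsewhere, at 72441355 and 71615895.
Mybbp1a: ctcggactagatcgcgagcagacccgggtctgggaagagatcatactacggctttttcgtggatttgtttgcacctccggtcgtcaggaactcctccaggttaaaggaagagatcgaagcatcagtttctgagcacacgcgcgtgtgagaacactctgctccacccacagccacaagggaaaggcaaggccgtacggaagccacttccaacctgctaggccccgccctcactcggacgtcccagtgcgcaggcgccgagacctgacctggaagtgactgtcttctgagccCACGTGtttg
Wdr43: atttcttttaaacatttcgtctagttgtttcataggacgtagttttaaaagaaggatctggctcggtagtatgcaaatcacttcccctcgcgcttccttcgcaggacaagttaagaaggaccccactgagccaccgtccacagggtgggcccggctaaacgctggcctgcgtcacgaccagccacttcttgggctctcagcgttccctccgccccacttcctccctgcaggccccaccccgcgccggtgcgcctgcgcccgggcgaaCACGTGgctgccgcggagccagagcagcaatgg
Utp18: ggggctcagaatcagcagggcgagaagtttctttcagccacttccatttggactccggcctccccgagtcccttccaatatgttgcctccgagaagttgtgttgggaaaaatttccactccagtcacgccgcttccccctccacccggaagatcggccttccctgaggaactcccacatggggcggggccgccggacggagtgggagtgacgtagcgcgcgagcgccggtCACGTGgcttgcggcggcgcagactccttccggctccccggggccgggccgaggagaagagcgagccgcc

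A match is a string of letters and says nothing of what is bound there. Of the 9 members with the E-box, Mybbp1a, Utp18 and Wdr43 were called higher in vehicle than in NTB mice. Nop2, Pes1, Rrn3, Tsr1, Utp20 and Utp4 were not called in GMPs. Whether holding the E-box went with the change was not tested. Myc itself was at 58.8, 43.2 and 52.4 CPM (NTB), 60.6, 75.7 and 50.6 CPM (vehicle) and 59.7, 64.1 and 70.3 CPM (BRQ). The groups overlapped in both comparisons with vehicle mice, and Myc changed by 0.24 (SE 0.14, adjusted p = 0.301), 0.11 (SE 0.11, adjusted p = 0.579) and 0.36 (SE 0.14, adjusted p = 0.13), none called.

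Other measures of the GMPs moved with the same groups. The share of GMPs in cluster 4, the GMP-like cluster with the highest summed level of the 40 genes, was 3.4% to 8.9% in NTB mice, 11.6% to 15.2% in vehicle mice and 22.9% to 45.0% in BRQ mice. Within cluster 0, the largest GMP-like cluster, the 40 genes held 48.2 to 51.7 UMIs per 10000 in NTB mice, 59.8 to 67.6 in vehicle mice and 50.2 to 63.4 in BRQ mice. Vehicle and NTB mice thus did not overlap within that cluster either, and the test on it alone called 8 members higher in vehicle mice (3.92% of all genes), 7 lower in BRQ than in vehicle mice (5.28% of all genes) and 0 between BRQ and NTB mice. In cluster 2 the values were 25.4 to 28.2, 30.1 to 36.3 and 27.7 to 42.3, and in cluster 4, with 3 to 12 cells per NTB mouse, 62.9 to 71.5, 91.8 to 103.6 and 72.1 to 82.2. With equal numbers of GMPs per cluster taken from every mouse (53 of cluster 0 and 17 of cluster 2, with GMPs of all other clusters left out), 2 members were called higher in vehicle than in NTB mice, 2 lower in BRQ than in vehicle mice and 0 between BRQ and NTB mice, with medians of 0.23, -0.15 and 0.09. Fewer cells enter that test.

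The share of UMIs taken by the 40 genes was compared between GMPs of different UMI counts. Among GMPs of 5000 to 10000 UMIs they held 34.2 to 39.2 per 10000 in NTB mice, 46.6 to 49.0 in vehicle and 38.1 to 50.2 in BRQ mice. Among GMPs of 15000 to 20000 UMIs they held 51.0 to 52.9, 58.2 to 62.9 and 57.9 to 62.9, and each mouse was higher there than in the former bin. In the bin between them 8 of 9 mice stood between their own 2 values, and vehicle mouse 2 was lower, at 45.98. Over 20000 UMIs the NTB mice, with 4, 17 and 16 such cells, were at 51.1, 52.3 and 52.7, with 68.5 to 80.9 in vehicle and 71.5 to 79.6 in BRQ mice, and up to 5000 UMIs, with 6 to 24 cells per mouse, the values had no common order with the next bin. NTB and vehicle mice did not overlap in 4 of 5 such bins, the exception being cells of up to 5000 UMIs (30.7 to 46.4 in NTB and 26.2 to 50.9 in vehicle mice). With equal numbers of GMPs per bin, 59 cells per mouse from the 4 bins up to 20000 UMIs, so that GMPs over 20000 UMIs were left out, 1 member was called between vehicle and NTB mice, 1 between BRQ and vehicle mice and 0 between BRQ and NTB mice, with medians of 0.11, -0.01 and 0.05. The part of UMI depth and of cluster in the differences over all GMPs was not tested beyond these values.

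**Figure D3:**
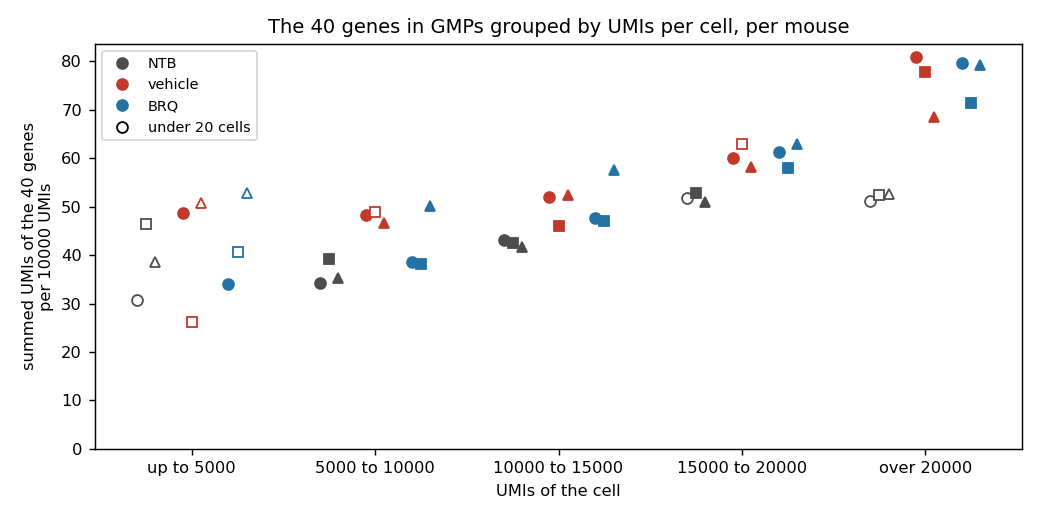
Summed UMIs of the 40 genes per 10000 (vertical axis, from 0) in GMPs of each mouse, by bin of total UMIs per cell (horizontal axis). Each point is 1 mouse, color gives the group, shape the pool, and open points have under 20 cells. In the 4 bins above 5000 UMIs the vehicle points lie above the NTB points.

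Cell type markers were called in GMPs as well. The 14 neutrophil markers, which all were tested, summed to 475 to 510 UMIs per 10000 in NTB-GMPs, 343 to 381 in Veh-GMPs and 272 to 385 in BRQ-GMPs. In the comparisons of vehicle with NTB, BRQ with vehicle and BRQ with NTB mice, the order kept for each list, 1, 4 and 2 of them were called higher and 8, 1 and 6 lower. The 8 GMP markers summed to 387 to 439, 398 to 410 and 326 to 412, with 1, 1 and 0 called higher and 1, 2 and 1 lower. The HSC/MPP markers (4 of 10 tested) summed to 0.42 to 0.45, 0.43 to 0.47 and 0.68 to 0.85, with 1, 2 and 2 called higher and 1, 0 and 0 lower. The monocyte/MDP markers (6 of 9 tested) summed to 0.59 to 0.73, 0.55 to 0.69 and 1.00 to 1.53, with 0, 3 and 2 called higher. The basophil/mast/eosinophil markers (4 of 10 tested) summed to 1.19 to 1.79, 0.84 to 1.11 and 1.81 to 1.98, with 1, 1 and 0 called higher and 2, 0 and 1 lower. The erythroid/MEP markers (5 of 10 tested) summed to 0.64 to 1.29, 1.21 to 1.37 and 0.81 to 1.19, with 1, 0 and 0 called higher and 0, 1 and 0 lower. Of the stromal/endothelial markers (3 of 8 tested), which summed to 2.78 to 2.97, 1.64 to 1.78 and 0.80 to 2.11, 0, 1 and 0 were called higher and 0, 0 and 1 lower. Of the macrophage markers (2 of 7 tested), which summed to 2.72 to 3.08, 1.59 to 1.72 and 0.63 to 1.94, 1, 0 and 2 were called lower. The remaining lists had 1 lymphoid progenitor marker called lower in vehicle than in NTB mice, 1 dendritic cell marker called higher in BRQ than in vehicle mice, and 0 calls among megakaryocyte, B cell and T/NK cell markers. No marker of these lists was at 0 over all mice. Their part in the values of the 40 genes was not tested.

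Outside the GMPs, the summed levels of the 40 genes in erythroid/MEP-like cells ran from 82.9 to 106.4 UMIs per 10000 across mice (the highest in vehicle mouse 2, with under 20 cells), above those of monocyte/MDP-like cells in each mouse but vehicle mouse 3. In neutrophil-like cells they ran from 7.9 to 10.9. Names of classes rest on marker genes, and the suffix -like says that RNA alone was measured. Monocyte/MDP-like cells (monocyte and dendritic cell progenitors) held 74.0, 68.9 and 66.6 in NTB mice 1 to 3, while vehicle mice held 82.1, 91.5 and 90.6 and BRQ mice 71.4, 66.2 and 76.5. The vehicle mice were above both other groups, which overlapped. HSC/MPP-like cells (stem cells and multipotent progenitors) held 64.0, 60.6 and 66.8 in NTB mice, 73.0, 68.6 and 72.0 in vehicle mice and 69.1, 68.9 and 72.0 in BRQ mice, where vehicle mouse 2 had 10 cells. These levels are a description, because the clusters were made from all genes.

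**Figure D4:**
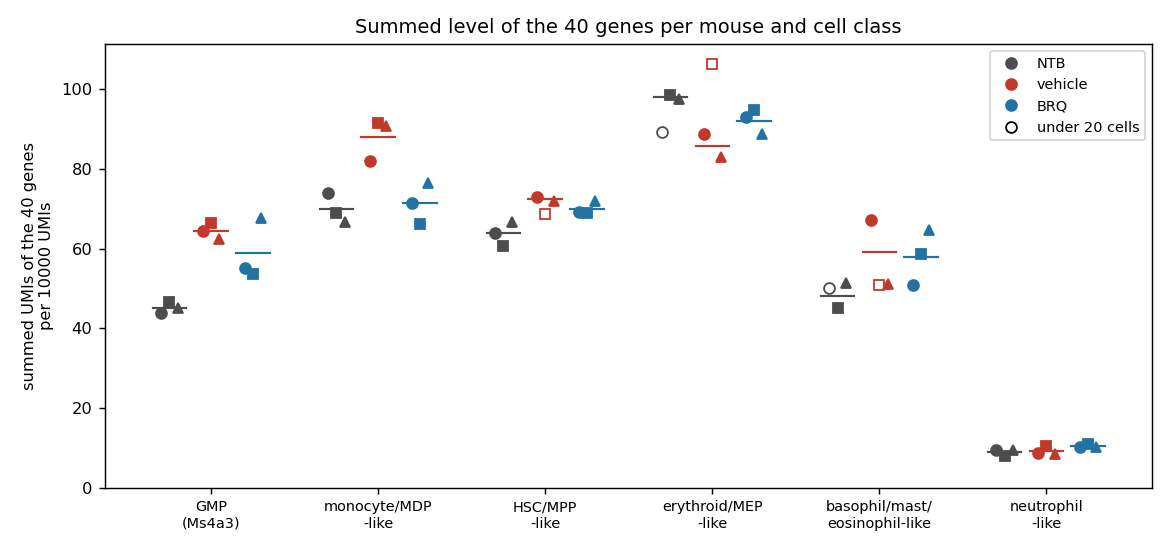
Summed UMIs of the 40 genes per 10000 (vertical axis, from 0) in each class of cells (horizontal axis). Each point is 1 mouse, lines are group means, color gives the group, and open points have under 20 cells. Neutrophil-like cells lie lowest, from 7.9 to 10.9, and in monocyte/MDP-like cells the vehicle mice, from 82.1 to 91.5, stand above the others.

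Monocyte/MDP-like cells were the other class in which members were called in both directions. There 38 of the 40 were higher in vehicle than in NTB mice, with a median of 0.34, and 11 were called higher and 0 lower, against 1.97% of 9512 genes called higher and 1.15% lower. Between BRQ and vehicle mice 38 were lower, with a median of -0.27, and 7 were called lower and 0 higher, against 2.98% of all genes called lower and 2.18% higher. Between BRQ and NTB mice the median was 0.08 and 0 were called (2 higher and 2 lower at an unadjusted p under 0.05), against 1.36% of all genes called higher and 1.49% lower. In 22 members the vehicle mice lay entirely above the NTB mice (10.8% of all genes), and in 21 the BRQ mice lay entirely below the vehicle mice (11.7% of all genes). With the pool as a block, 11 members were called between BRQ and vehicle mice and 2 between BRQ and NTB mice, while calls over all genes, in either direction, went from 5.15% to 7.85% and from 2.85% to 4.83%. Median UMIs per cell of this class were 13732 to 17655 in NTB, 21260.5 to 23960 in vehicle and 15361 to 18703.5 in BRQ mice, and their part in these values was not tested. Cells numbered from 42 in vehicle mouse 2 to 359.

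In this class Npm1 was at 2789, 2588 and 2317 CPM (NTB), 3246, 3509.8 and 3242 CPM (vehicle) and 2265, 2116 and 2024 CPM (BRQ). The vehicle mice were highest and the BRQ mice lowest, with no overlap between any of the groups. Its log2 fold changes were 0.38 (SE 0.09, adjusted p = 0.0255), -0.64 (SE 0.09, adjusted p = 0.000169) and -0.26 (SE 0.09, adjusted p = 0.15). Rrp12, not called in GMPs, had the largest change here, with 12.3, 16.1 and 20.3 CPM (NTB), 29.97, 42.7 and 31.8 CPM (vehicle) and 20.7, 15.3 and 23.8 CPM (BRQ). The vehicle mice stood apart from both other groups, with changes of 0.93 (SE 0.22, adjusted p = 0.0231) and -0.69 (SE 0.16, adjusted p = 0.013). Gnl3 measured 162, 143 and 133 CPM (NTB), 162, 186 and 179.7 CPM (vehicle) and 129, 127 and 139 CPM (BRQ). Its vehicle mice lay above the NTB mice, by less than 1 CPM at the nearest, and its fall of -0.40 (SE 0.09, adjusted p = 0.0112) between BRQ and vehicle mice was called, unlike its change of -0.15 (SE 0.10, adjusted p = 0.375) in GMPs. The difference between these 2 classes was not tested.

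Of the rest, Ncl was called in both directions in monocyte/MDP-like cells at 0.47 (SE 0.11, adjusted p = 0.0171) and -0.50 (SE 0.10, adjusted p = 0.00584), and Nhp2 at 0.41 (SE 0.10, adjusted p = 0.0269) and -0.36 (SE 0.10, adjusted p = 0.0263). Called higher in vehicle than in NTB mice were also Gar1, Nolc1, Ddx18, Bop1, Wdr43, Utp18 and Nop56, at 0.37 to 0.60, and called lower in BRQ than in vehicle mice were Rrp9, at -0.56 (SE 0.14, adjusted p = 0.0189), and Ddx56, at -0.47 (SE 0.13, adjusted p = 0.0408). The calls between vehicle and NTB mice changed in number when single mice were left out. They numbered 0 without NTB mouse 2 or 3 or vehicle mouse 2, 3 without vehicle mouse 1 and 7 without NTB mouse 1, vehicle mouse 3 or BRQ mouse 1. Between BRQ and vehicle mice they numbered 3 without vehicle mouse 2 or BRQ mouse 2 and 4 without BRQ mouse 1. A fit that leaves out a mouse has fewer mice for every gene. Calls over all genes in these fits are not given here, so the counts do not set the members apart.

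In HSC/MPP-like cells, 32 of the 40 genes were higher in vehicle than in NTB mice, with a median of 0.16, and 0 were called (9 higher and 2 lower at an unadjusted p under 0.05), against 0.728% of 10031 genes called higher and 0.339% lower. BRQ against vehicle mice gave a median of -0.04 with 0 called (1 higher and 1 lower unadjusted), where 0% of all genes were called higher and 0.0199% lower. BRQ against NTB mice gave a median of 0.14 with 0 called (7 higher unadjusted), where 0.459% of all genes were called higher and 0.479% lower. Vehicle mouse 2, with 10 cells, was left out of this fit. The change itself was compared between GMPs and this class, each mouse being its own pair (limma). In that test 0 of 40 members differed in any comparison, with 9, 1 and 4 at an unadjusted p under 0.05 (11.5%, 7.49% and 11.3% of all genes), and 0% of 9376 genes were called. The median difference, GMP minus HSC/MPP-like, was 0.24 between vehicle and NTB mice. In erythroid/MEP-like cells 0 members were called, with medians of -0.10, 0.06 and -0.03, in 7 mice (0, 1 and 0 higher and 1, 1 and 4 lower at an unadjusted p under 0.05). Of 8227 genes 1.01%, 0% and 0.401% were called higher there and 0.0243%, 0.134% and 0.0122% lower.

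Neutrophil-like cells, in which ribosome production is known to be low, held 9.59, 7.94 and 9.47 UMIs of the 40 genes per 10000 in NTB mice, 8.76, 10.5 and 8.55 in vehicle mice and 10.3, 10.9 and 10.3 in BRQ mice. The vehicle mice overlapped both other groups, and the BRQ mice lay above the NTB mice. The filter was passed by 32 of the 40 genes. The medians were -0.05, -0.003 and -0.001, with 0, 0 and 1 called in the 3 comparisons, against 11%, 0.0344% and 5.63% of 8727 genes called higher and 5.78%, 0% and 0.848% lower. At an unadjusted p under 0.05 the members numbered 0, 2 and 3 higher and 0, 0 and 1 lower. The 1 call was Polr1a, the largest Pol I subunit, in BRQ against NTB mice. It was at 14.9, 12.7 and 15.3 CPM (NTB), 18.6, 16.1 and 19.1 CPM (vehicle) and 26.3, 31.04 and 54.7 CPM (BRQ), with BRQ mouse 3 highest, and changed by 1.36 (SE 0.27, adjusted p = 0.0107). The call was lost without NTB mouse 2 or 3. The class is made of different clusters in different groups: cluster 1 held 5.6% to 8.5% of it in NTB mice, 63.2% to 88.7% in vehicle mice and 43.3% to 78.1% in BRQ mice. Median UMIs per cell were 6017 to 6697.5, 1581 to 2156 and 2673.5 to 4423.5.

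Within cluster 3 of these cells alone, an alternative chosen after the data were seen, the 40 genes held 8.7 to 10.5 per 10000 in NTB mice, 8.8 to 10.1 in vehicle mice and 13.4, 14.7 and 18.1 in BRQ mice. There the BRQ mice were above both other groups. Between BRQ and vehicle mice 1 member was called, Nop10, at 0.83 (SE 0.19, adjusted p = 0.026), against 0.36% of all genes in either direction, and between vehicle and NTB mice 0 were (4 higher and 2 lower at an unadjusted p under 0.05), against 5.57%. Of 31 members tested between BRQ and NTB mice, 7 were called higher, Wdr12, Ncl, Ddx18, Nop10, Ddx21, Npm1 and Nhp2, and Ubtf was called lower, against 8.85% of all genes called higher and 4.94% lower. Nop10 rose most, by 1.19 (SE 0.14, adjusted p = 4.21e-08), followed by Wdr12 at 1.08 (SE 0.31, adjusted p = 0.015) and Ddx21 at 0.95 (SE 0.23, adjusted p = 0.00297), while Npm1 rose by 0.69 (SE 0.13, adjusted p = 0.000124) and Ubtf changed by -0.48 (SE 0.16, adjusted p = 0.0327). Vehicle mouse 2 had too few of these cells and was left out. In clusters 1 and 6 alone, 1 and 0 members were called between BRQ and vehicle mice (4.81% and 0.324% of all genes in either direction).

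The rise from NTB to vehicle mice was also tested for a difference between GMPs and neutrophil-like cells. Of 32 members tested, 2 differed (6.25%), Wdr75 and Rrs1, against 10.2% of 8438 genes. At an unadjusted p under 0.05 were 11 members (34.4%) and 33.8% of all genes, shares that lay close together. The median difference over the members was 0.51. For BRQ against vehicle and BRQ against NTB mice 0 differed (7 and 2 unadjusted), against 0% and 0.0119% of all genes (13.5% and 14.4% unadjusted).

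The 40 genes were set beside 3 other gene lists of the translation machinery in GMPs. The 81 cytoplasmic ribosomal protein genes, whose products are added to the new subunits, had other counts. Of 78 tested, 2 were called higher and 0 lower in vehicle than in NTB mice with a median of 0.00, and 62 were called lower in BRQ than in vehicle mice with a median of -0.40. Against NTB mice, BRQ-GMPs had 49 called lower and 1 higher, with a median of -0.41, where the nucleolar genes had 4 called higher and a median of 0.26. The 78 mitochondrial ribosomal protein genes, which serve the ribosomes of mitochondria, had 31 called higher in vehicle than in NTB mice (median 0.33) and 17 called lower in BRQ than in vehicle mice (median -0.15). Their BRQ against NTB values are not given here. Beside these lists and the one below, 6.63% of all genes were called higher and 4.68% lower in vehicle than in NTB mice. The shares were 6.08% higher and 7.36% lower in BRQ than in vehicle mice, and 2.56% higher and 3.46% lower in BRQ than in NTB mice.

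A further 124 ribosome assembly genes outside the 40, of which 122 were tested, had 26 called higher and 0 lower in vehicle than in NTB mice, with a median of 0.31. Between BRQ and vehicle mice 12 were called lower with a median of -0.13, and between BRQ and NTB mice 3 were called higher and 1 lower with a median of 0.17. Those with the smallest adjusted p in the first comparison were Emg1, a small-subunit methyltransferase, at 0.52 (SE 0.09, adjusted p = 0.000428), and Snu13, a protein of box C/D particles, at 0.54 (SE 0.09, adjusted p = 0.000499). In the second they were Nsa2, of the large subunit, at -0.38 (SE 0.08, adjusted p = 0.00164), and Mrto4, also an assembly factor of the large subunit, at -0.41 (SE 0.09, adjusted p = 0.00343). Nsa2 stood at 332, 307 and 332 CPM (NTB), 301, 315 and 313 CPM (vehicle) and 237, 239 and 236 CPM (BRQ). It was lower in BRQ than in all other mice without having risen in vehicle mice (-0.07 (SE 0.08, adjusted p = 0.678)). Ftsj3, a methyltransferase of the ribosomal RNA, had the smallest adjusted p among the genes called higher in BRQ than in NTB mice, at 0.67 (SE 0.13, adjusted p = 0.00366).

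**Figure D5:**
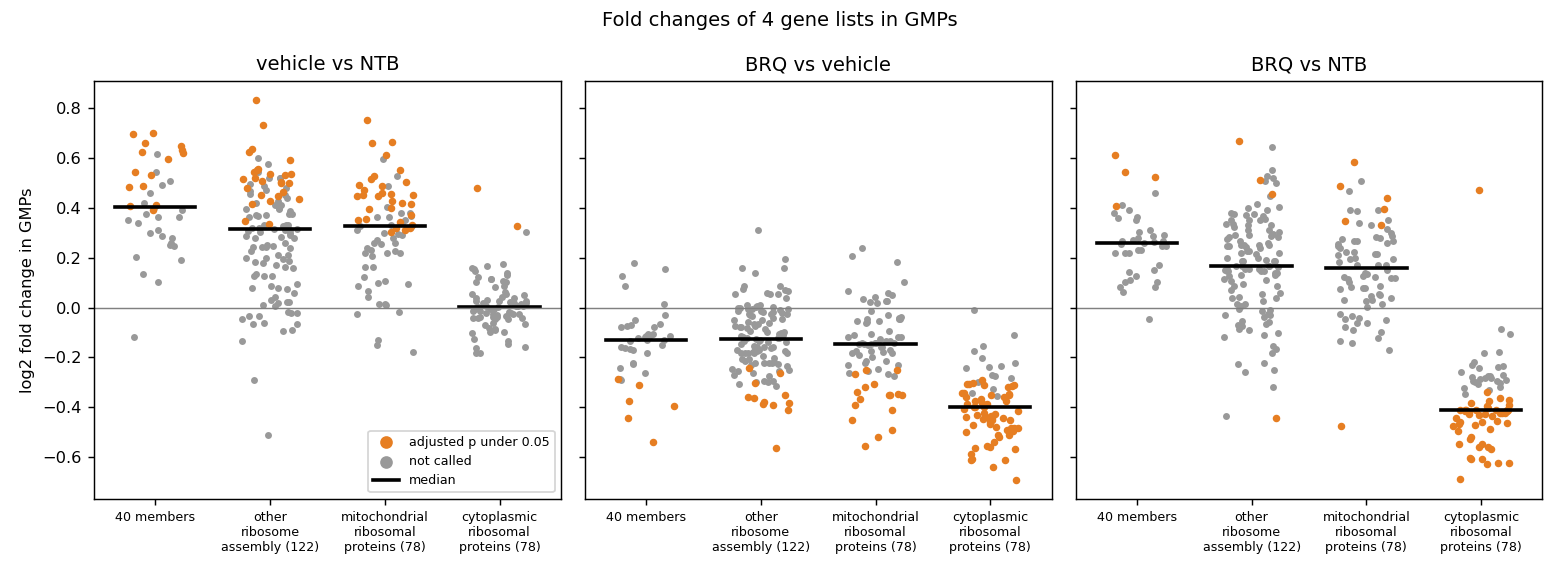
Log2 fold changes in GMPs of each tested gene of 4 lists (nucleolar members, other ribosome assembly genes, cytoplasmic and mitochondrial ribosomal protein genes) in the 3 comparisons, with the median of each list. The medians of the nucleolar members run 0.40, -0.13 and 0.26 and those of the cytoplasmic ribosomal protein genes 0.00, -0.40 and -0.41.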

How the data were processed

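For each of the 3 pools the authors deposited 1 matrix of unnormalized UMI counts, with genes and hashtag antibodies against barcodes, made from 10x Genomics 3' libraries. The submitters' processing notes name Cell Ranger 6.0.0, Seurat and mm10. The members, gene lists, tests and alternatives were chosen with earlier results of these data known.

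Barcodes with over 15% mitochondrial UMIs, or with a number of detected genes outside 500 to 7500, were dropped. As the study's wording for this range is transcripts, it was also applied to UMIs. Hashtags were called per pool with HTODemux (Seurat 5.3.0, centred log-ratio, positive quantile 0.99), and singlets were kept. Scrublet marked 4.54% of the kept cells as doublets, which were left out in an alternative. Cells were clustered with scanpy 1.11.5 (2000 variable genes, 30 principal components, 20 neighbours, Leiden resolution 0.8, leidenalg 0.10.2, igraph 0.11.9), and 19 clusters were named by marker lists, 3 staying unnamed. GMPs were singlets with ln(1 + Ms4a3 UMIs per 10000) over 3.

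Counts were summed per mouse and tested with edgeR 4.0.16 (TMM factors, filterByExpr, two-sided quasi-likelihood test) over all 9 mice in 1 fit, with Benjamini-Hochberg adjustment over all genes tested and a call at an adjusted p under 0.05. Classes were tested where at least 2 mice per group had 20 cells, so B cell-like, macrophage-like, megakaryocyte-like and stromal/endothelial-like cells were not tested. Basophil/mast/eosinophil-like cells (7 mice) gave 0 calls among the members. There 0% of 6397 genes were called in any comparison, so this count does not set the members apart. CPM are counts at a common library size after TMM scaling, SE is the standard error of a log2 fold change, and intervals are 95%. Differences of a change between 2 classes were tested with limma 3.58.1 on log2 CPM (prior count 2). DESeq2 1.42.0 and other alternatives were run beside these. Gene positions came from GENCODE M21 (GRCm38), in which 32235 of 32285 identifiers were found. R 4.3.3 and Python 3.11.15 were used, and the code was tested on simulated data.

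Values are given for 12 members picked for their roles and for the 3 called members with the smallest adjusted p in each comparison, and others by counts and ranges. The other members called in GMPs are named too, and Nolc1, Wdr43, Ddx18 and Ddx56 given per mouse, which was chosen after their values were seen. Of the other assembly genes, the 2 called with the smallest adjusted p per comparison and Myc are named. The labels give the pool that each mouse shares with 2 others. After centring on the group mean, log2 CPM of 2 mice in GMPs correlated across genes, with 0.088 as the median Pearson r in the same pool (9 pairs, lowest -0.019) and -0.046 in different pools (18 pairs). The pool was kept as a block in an alternative.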

Additional observations from a re-analysis of the deposited data

Results flagged for a closer look

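The change from NTB to vehicle mice differed between GMPs and neutrophil-like cells for Rrs1 and Wdr75, by a test of the difference itself in which each mouse is its own pair (limma, adjusted over 8438 genes, of which 10.2% were called). For Rrs1, which helps bring the 5S particle into the large subunit, the log2 change was 1.21 larger in GMPs (adjusted p = 0.0462, 9 mice). It rose in GMPs, from 48.96, 48.8 and 49.01 CPM in NTB mice to 70.6, 70.7 and 55.04 in vehicle mice, and stood at 11.2, 9.46 and 9.67 CPM in the neutrophil-like cells of NTB mice and at 8.57, 5.36 and 3.32 in those of vehicle mice. For Wdr75, of the particle that first binds the precursor RNA, the difference was 1.44 (adjusted p = 0.0405), with 28.3, 20.7 and 16.8 CPM in NTB-GMPs and 34.1, 33.8 and 29.3 in Veh-GMPs. Neutrophil-like cells had 6.22, 5.10 and 3.87 CPM of Wdr75 in NTB and 4.76, 2.68 and 0.83 in vehicle mice. In neutrophil-like cells vehicle mouse 3 was lowest for both genes, and the vehicle mice lay entirely below the NTB mice for Rrs1 but not for Wdr75. Cluster make-up and UMIs per cell of that class differed between the same groups, as given above, and their part in the differences was not tested. In the neutrophil-like cells Wdr75 rests on 10, 1 and 1 UMIs in the vehicle mice and on 5, 14 and 26 in the NTB mice, and Rrs1 on 18, 2 and 4 and on 9, 26 and 65, so both differences rest on 1 to 4 UMIs in vehicle mice 2 and 3. Both calls were lost with a prior count of 0.5, and the call of Rrs1 in GMPs was lost when any of 5 mice was left out.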

How the results depend on the processing

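The number of GMPs (88 in the smallest NTB mouse), their uneven UMIs per cell and 3 mice per group limit these comparisons, and intervals cover the spread between mice only. The calls of 15, 6 and 4 members in GMPs (vehicle against NTB, BRQ against vehicle, BRQ against NTB) moved with several settings. Shares in parentheses are of all genes called in either direction, which were 11.3%, 13.4% and 6.01%. Scaling by cells gave 39, 2 and 35 (36.5%, 3.84% and 28.7%), where it also moved the median over all genes to 0.50, -0.05 and 0.45, and the members' medians were then 0.92, -0.18 and 0.72. Limits read as UMIs gave 0, 0 and 0 calls (0%, 0% and 0.0619%), equal GMPs per cluster 2, 2 and 0 (3.75%, 3.93% and 2.35%), equal GMPs per UMI bin 1, 1 and 0 (2.08%, 2.89% and 2.03%), cluster 2 alone 0, 1 (Wdr12, higher) and 0 (0.137%, 3.68% and 0.249%), and cluster 0 alone 8 in the first and 0 in the third comparison (6.67% and 2.39%). All 5 of these settings test fewer cells. An Ms4a3 limit of 2.5 gave 29 and 19 calls in the first and in the third comparison (22.6% and 15.7%), and all GMP-like clusters gave 32 and 27 (28.96% and 20.4%). In the third, DESeq2 gave 2 calls (5.27%), no filter on low counts 8 (4.88%), the pool as a replicate block 10 (11.8%) and hashtag calls from tag ratios 8 (8.75%). The block gave 22 calls in the first and 7 in the second comparison (16.4% and 20.4%), among them all 15 of the first. Leaving out each mouse in turn gave 10 to 19, 2 to 10 and 2 to 6 calls. Calls over all genes then numbered 538 to 1502, 699 to 1477 and 227 to 775. For settings not explained by their construction, the cause was not tested.

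Over the other classes together (11, 7 and 1 calls), scaling by cells gave 58, 12 and 0. The 58 were 35 in monocyte/MDP-like cells (26.2% of all genes, whose median moved to 0.38), 22 lower in neutrophil-like cells (70.6%, median -1.06) and 1 in HSC/MPP-like cells (1.64%, median 0.14), and the 12 were in monocyte/MDP-like cells (4.97%, median -0.19). The block gave 11 in the second, all in monocyte/MDP-like cells (7.85%), and 7 in the third comparison, 2 each in HSC/MPP-like (2.39%), monocyte/MDP-like (4.83%) and neutrophil-like cells (15.5%) and 1 in erythroid/MEP-like cells (0.681%). Tag ratios gave 11 in the second (monocyte/MDP-like, 6.29%) and 4 in the third (neutrophil-like, 6.85%). In the third, neutrophil-like cells of cluster 1, 3 or 6 alone, an alternative chosen after seeing the data as were clusters 0 and 2 alone, gave 0, 8 and 0 (0%, 13.8% and 3.68%). Leave-outs gave 0 to 11, 3 to 10 and 0 to 2, and calls over all genes in them are not given here. The difference between GMPs and neutrophil-like or HSC/MPP-like cells (2, 0 and 0 calls) was called in 0 members for vehicle against NTB mice with a prior count of 0.5, and in 0 to 4, 0 to 0 and 0 to 0 in leave-outs. Of combinations of class and setting, 12 left too few mice and were not run.

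The named members' log2 fold changes in GMPs kept direction and side of the threshold in 1276 recomputed values, lost a call in 133 and gained one in 85. The direction turned in 66, and so did that of the members' median in the second comparison, at 0.10 in cluster 2 alone. With limits read as UMIs the vehicle against NTB values were -1.16 for Nop56, -0.025 for Nolc1, -0.21 for Nop58 and -0.053 for Wdr43, the BRQ against vehicle values were 0.35 for Nop56, 0.44 for Nop58, 0.11 for Pes1 and 0.14 for Ubtf, and the BRQ against NTB values were -0.11 for Ncl, -0.11 for Npm1, -0.81 for Nop56, -0.52 for Dkc1, -0.31 for Nolc1 and -0.16 for Wdr43. With equal GMPs per UMI bin the values were -0.23 for Dkc1, -0.24 for Pes1, -0.22 for Rrp12, -0.18 for Rrs1, -0.24 for Wdr43, -0.12 for Wdr75 and -0.032 for Rrn3 in the first comparison. In the second they were 0.0017 for Fbl, 0.024 for Nop56, 0.073 for Dkc1, 0.11 for Pes1, 0.099 for Rrp12, 0.0041 for Ddx21, 0.031 for Rrs1, 0.31 for Wdr43 and 0.10 for Mybbp1a, and in the third -0.073 for Npm1, -0.16 for Dkc1, -0.13 for Pes1, -0.12 for Rrp12, -0.15 for Rrs1, -0.47 for Wdr75 and -0.40 for Rrn3. With equal GMPs per cluster they were -0.093 for Nob1 in the first, 0.058 for Nop56, 0.054 for Pes1, 0.063 for Rrs1 and 0.14 for Polr1b in the second, and -0.17 for Npm1, -0.020 for Fbl, -0.018 for Rrp12, -0.41 for Rrn3, -0.16 for Utp18 and -0.034 for Ubtf in the third. With equal GMPs per cell cycle phase, drawn from S and G2M cells alone, they were -0.11 for Pes1 and -0.12 for Polr1b in the first, 0.021 for Dkc1, 0.19 for Pes1, 0.022 for Gnl3, 0.17 for Utp18 and 0.054 for Mybbp1a in the second, and -0.30 for Polr1b in the third. With an Ms4a3 limit of 2.5 Pes1 was at 0.033 in the second. In leave-outs of that comparison Pes1 ran from -0.13 to 0.022 (0.0043 without vehicle mouse 3 and 0.022 without BRQ mouse 1), and Polr1b from -0.19 to 0.010, the latter without BRQ mouse 2. In the third, Ddx56 was at 0.41 with scaling by cells, 0.0054 with tag ratios, 0.11 with an Ms4a3 limit of 2.5 and 0.16 in all GMP-like clusters, and ran from -0.22 to 0.13 in leave-outs (0.13 without NTB mouse 1 and 0.019 without BRQ mouse 2).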
